A study of Mus musculus with 6 samples.

Results

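The members are 9 genes of the cell's defence against peroxides, superoxide and quinones: *Gpx1*, *Gpx2*, *Gpx4*, *Cat*, *Sod1*, *Sod2*, *Prdx1*, *Txnrd1* and *Nqo1*. They were taken by symbol from the gene list of the count tables, where 9 of 9 symbols were found among 32285 genes. Their RNA was measured in single cells of the jejunal epithelium of male wildtype C57BL/6J mice, about 30 weeks old. The mice ate their diet for 16 weeks before surgery and were returned to it afterwards. Tissue was taken 5 weeks after surgery, following an overnight fast. LFD sham mice (3) ate a low-fat diet and had a sham operation, HFD sham mice (3) ate a high-fat diet and had the same sham operation, and HFD VSG mice (2) ate the high-fat diet and had vertical sleeve gastrectomy, the removal of most of the stomach along its greater curvature. The cells of each group's mice were pooled, and crypt and villus suspensions were captured separately in droplets with 10x Genomics 3' v3.1 chemistry, giving 1 crypt-labelled and 1 villus-labelled library per group. The 6 libraries come from 8 mice and have no replicate. No difference between groups could therefore be set against the variation between mice, no p-value is given, and all intervals are exact 95% Poisson limits that cover counting error only.

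Oxygen metabolism produces superoxide, which the dismutases turn into hydrogen peroxide. Glutathione peroxidases and peroxiredoxins then reduce the peroxide, with electrons drawn from glutathione or, through thioredoxin reductase, from thioredoxin. Catalase splits hydrogen peroxide into water and oxygen without such a donor. GPX1, GPX2, GPX4 and thioredoxin reductase 1 are selenoproteins, whose selenocysteine sits in the active site. Several of these genes belong to the program of the transcription factor NRF2, which binds antioxidant response elements in promoters and enhancers. The intestinal epithelium is renewed from stem cells in the crypts, and the cells mature into absorptive enterocytes as they move up the villi, where they meet food, bile and bacteria.

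The promoters are shown because the antioxidant response element is the element through which NRF2 acts on such genes. RefSeq windows of 300 bases (250 before to 50 after a transcription start, build GRCm38.p6) were found for 9 of 9 members, 14 windows in all. They were searched on both strands for TGACNNNGC, the core of the element. The core stood in 3 of the 14 member windows, those of *Sod1*, *Prdx1* and *Txnrd1*, against 4071 of 32851 windows of all genes (12.4%). A match is a run of letters, not a shown binding site, and no match says only that these letters are not in this window. The 3 windows with the core follow, with the core in capitals. They are read 5′ to 3′ on the strand of the gene, on which the core appears as its reverse complement. The window of *Gpx1*, whose level in enterocyte-like cells differed most between libraries, and that of *Nqo1*, a textbook NRF2 target, are shown beside them and hold no core.

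*Sod1* (chr16:90220512-90220811, plus strand): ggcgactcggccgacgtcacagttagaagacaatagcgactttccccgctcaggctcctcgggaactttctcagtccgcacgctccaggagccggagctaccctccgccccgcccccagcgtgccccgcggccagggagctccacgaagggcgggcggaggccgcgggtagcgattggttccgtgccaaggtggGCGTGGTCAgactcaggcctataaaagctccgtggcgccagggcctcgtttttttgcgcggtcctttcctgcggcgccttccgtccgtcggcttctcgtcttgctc
*Prdx1* (chr4:116685349-116685648, plus strand): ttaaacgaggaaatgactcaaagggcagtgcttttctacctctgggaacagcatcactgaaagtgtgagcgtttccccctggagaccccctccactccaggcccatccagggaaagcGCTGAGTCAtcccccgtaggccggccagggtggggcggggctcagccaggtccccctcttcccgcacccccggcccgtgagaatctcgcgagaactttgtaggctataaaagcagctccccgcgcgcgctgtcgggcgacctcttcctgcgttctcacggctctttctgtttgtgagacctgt
*Txnrd1*, window 2 of 3 (chr10:82858956-82859255, plus strand): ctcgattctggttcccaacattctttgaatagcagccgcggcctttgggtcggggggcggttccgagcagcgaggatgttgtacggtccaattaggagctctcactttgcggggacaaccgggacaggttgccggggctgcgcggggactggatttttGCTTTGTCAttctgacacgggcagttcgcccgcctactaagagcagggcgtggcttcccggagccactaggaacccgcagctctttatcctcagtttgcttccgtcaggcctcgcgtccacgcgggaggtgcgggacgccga
*Gpx1* (chr9:108338830-108339129, plus strand): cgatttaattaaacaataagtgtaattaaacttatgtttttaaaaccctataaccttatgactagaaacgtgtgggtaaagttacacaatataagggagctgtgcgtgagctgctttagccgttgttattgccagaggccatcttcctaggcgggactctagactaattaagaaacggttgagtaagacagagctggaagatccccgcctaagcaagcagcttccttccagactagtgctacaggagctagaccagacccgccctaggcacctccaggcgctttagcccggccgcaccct
*Nqo1* (chr8:107403156-107403455, minus strand): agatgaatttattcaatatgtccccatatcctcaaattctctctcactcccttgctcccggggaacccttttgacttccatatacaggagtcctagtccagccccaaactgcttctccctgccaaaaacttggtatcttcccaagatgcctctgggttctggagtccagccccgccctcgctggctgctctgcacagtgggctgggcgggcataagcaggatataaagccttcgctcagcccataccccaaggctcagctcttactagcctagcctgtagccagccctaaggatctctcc

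Read on the opposite strand, the match in *Prdx1* is TGACTCAGC, that in *Sod1* TGACCACGC and that in *Txnrd1* TGACAAAGC. The end of each match farthest from the transcription start lies 133, 56 and 92 bases upstream of it, in the same order.

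The 6 libraries held 7765 to 12012 called barcodes and 60522766 to 155522445 UMIs (unique molecular identifiers, 1 per captured molecule) in them. After filters, 2949 to 4721 cells per library remained, 23875 of 59457 in all, with median depths from 8447.5 UMIs per cell in LFD sham crypts to 30374 in HFD VSG villi. Clusters were named from marker genes. The classes are stem-like, cycling progenitor-like, enterocyte-like (clusters 1, 2, 4, 11 and 16), goblet-like, Paneth-like, tuft-like, EEC-like (enteroendocrine) and immune-like cells. Cluster 0 (led by *Gm3776*, *Ms4a18* and *Gsta1*), cluster 5 (led by *Gsdmc4*, *Car4*, *Akr1b8* and the member *Gpx1*) and cluster 10 (led by *Ly6m*, *Ada* and *Slc28a2*) met no class rule and are called by number. Clusters 3 (led by *Igha*, *Gm42418* and *Igkc*), 6 (led by *Hbb-bs*, *Mcpt1* and *Ccdc152*) and 12 (led by *Cd79a*, *Ebf1* and *Mef2c*) entered no comparison. The top genes of clusters 3 and 6 include some taken here as marks of damaged droplets, a use that was not tested, and those of cluster 12 include B-cell genes. These clusters were shared by all libraries. They held 6.44 to 15.7%, 3.16 to 9.52% and 1.47 to 3.70% of the cells of a library.

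The labels crypt and villus did not match the marker content. The villus-labelled libraries held 241, 108 and 441 stem-like cells in LFD sham, HFD sham and HFD VSG, and the crypt-labelled ones 46, 47 and 138. Paneth-like cells numbered 151, 212 and 46 in the villus-labelled libraries and 65, 27 and 35 in the crypt-labelled ones. The word crypts or villi below is thus the name of a library, and comparisons were made within 1 label and 1 cell class. The HFD sham villi held 7 immune-like cells, against 73 to 550 in each of the other libraries, and the class was left out there. The 9 members made up 0.376% of all UMIs of the cells that passed, 1474160 UMIs, from 9749 for *Nqo1* to 502322 for *Prdx1*. Levels are the gene's UMIs over all UMIs of the class, scaled to CPM as is usual for such data, and are compared between classes and libraries for 1 gene at a time.

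Along the absorptive lineage the members did not move as 1 group. In each of the 6 libraries 6 of the 9 members were higher in enterocyte-like than in stem-like cells, *Gpx4*, *Cat*, *Sod1*, *Prdx1*, *Txnrd1* and *Nqo1*, and *Gpx2* was lower in each. For *Nqo1* the interval lay above 0 in 4 of the 6 libraries. Stem-like cells held 5 and 4 UMIs of *Nqo1* in LFD sham and HFD sham crypts. *Gpx1* was lower in 5 libraries and *Sod2* in 4. Among all 9675 genes counted, 26.1% were higher in enterocyte-like cells in 6 of 6 libraries and 47.9% were lower, and all genes together had a median log2 ratio of −0.42. Both classes were built from the same cells, so these levels are a description.

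**Figure D1:**
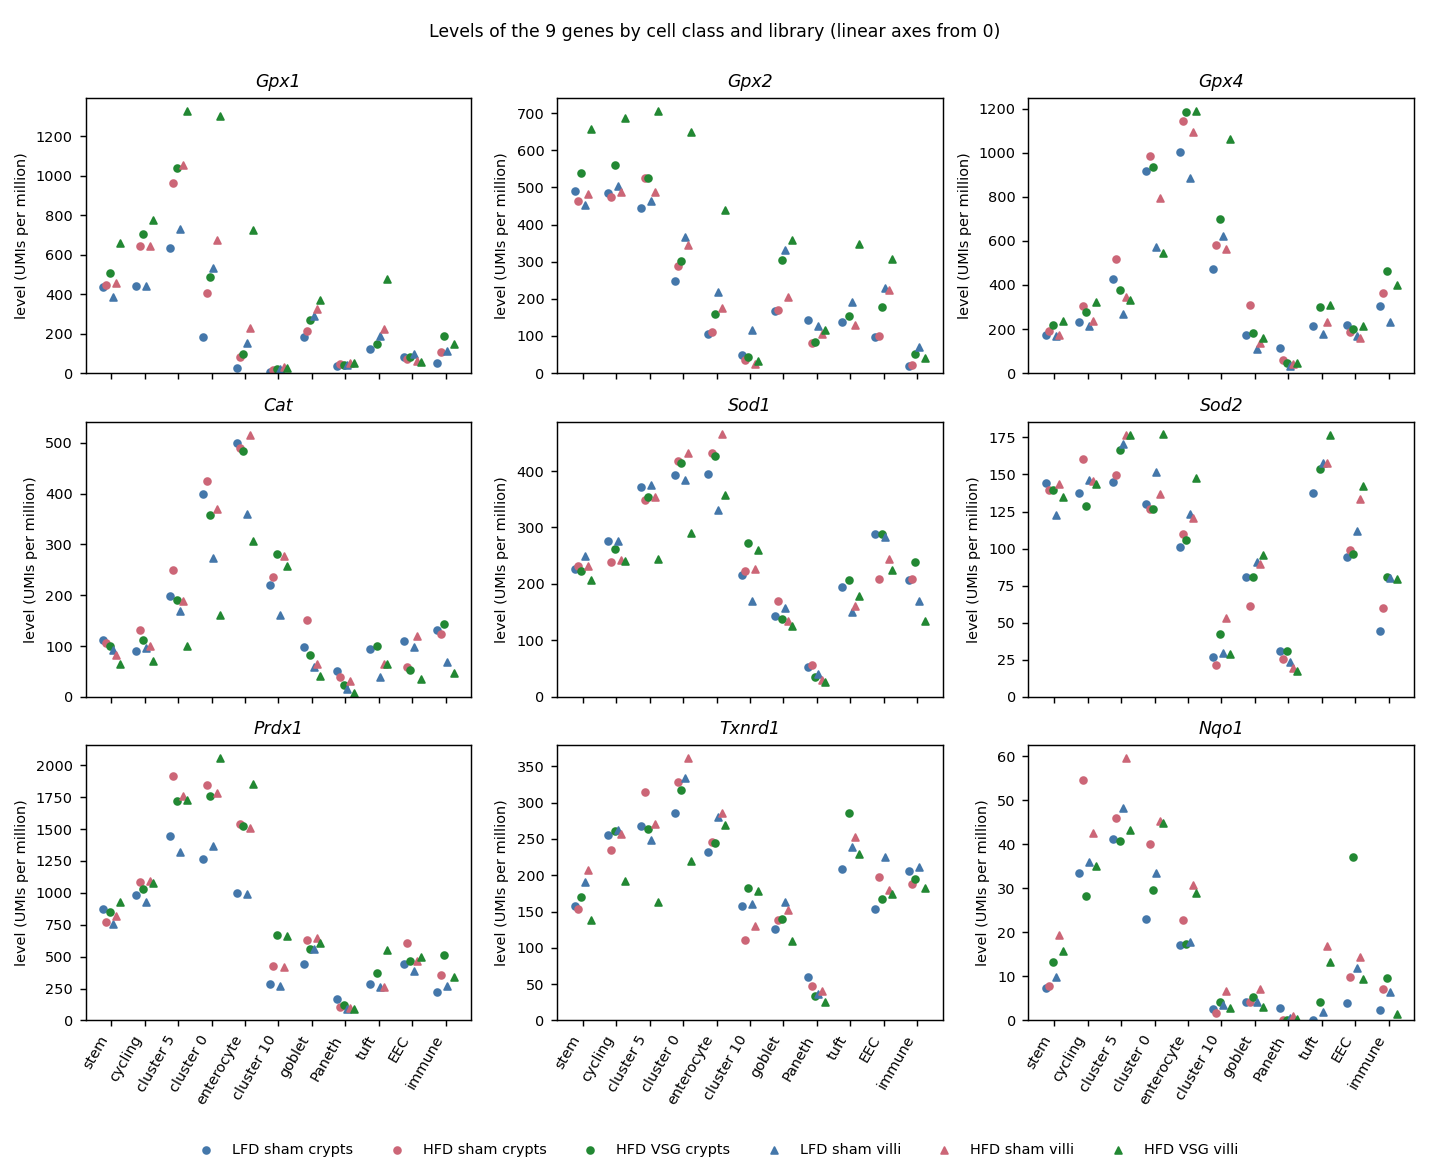
Level of each of the 9 genes (CPM, linear axes from 0) in 11 cell classes; each point is 1 library, circles are crypt-labelled and triangles villus-labelled, and colour marks the group. *Gpx4* and *Cat* peak in enterocyte-like cells, where *Cat* lies between 308 and 516 CPM, while *Gpx1* is highest in cluster 5 (636 to 1329 CPM) and, in HFD VSG villi, stays high into enterocyte-like cells at 727 CPM.

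*Gpx1* (chr9:108338903-108340343, plus strand) encodes the ubiquitous cytosolic glutathione peroxidase. Its level in stem-like cells was 435, 449 and 508 CPM in the crypt-labelled libraries of LFD sham, HFD sham and HFD VSG and 384, 458 and 658 CPM in the villus-labelled ones. In cluster 5 it was between 636 and 1329 CPM, the highest of the classes in 6 of 6 libraries, but it is 1 of the leading genes of that cluster and the level there is no finding. Cycling progenitor-like cells followed with a median of 644 CPM over the libraries, then cluster 0 with 509 CPM and stem-like cells with 453 CPM. Cluster 0 ranged from 183 CPM in LFD sham crypts to 1304 CPM in HFD VSG villi, so its range spans that of stem-like cells. In enterocyte-like cells *Gpx1* ranged from 26.7 CPM in LFD sham crypts to 727 CPM in HFD VSG villi. The lowest levels were in cluster 10, 6.72 to 30.0 CPM, again in 6 of 6 libraries. The log2 ratio of enterocyte-like to stem-like cells was −4.02 at its lowest and above 0 only in HFD VSG villi, where it was 0.15.

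*Gpx2* (chr12:76792333-76795554, minus strand) encodes the glutathione peroxidase of the gastrointestinal epithelium. Its stem-like levels lay between 451 and 658 CPM, its cluster 5 levels between 444 and 707 CPM, and its enterocyte-like levels between 106 and 439 CPM. The median log2 ratio of enterocyte-like to stem-like cells was −1.62. HFD VSG villi held the highest level in each of the 3. *Fntb* overlaps *Gpx2* on the opposite strand, as *Scaf4* overlaps *Sod1*, and the strand setting of the counting was not given in the sources used here.

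*Gpx4* (chr10:80047166-80056439, plus strand) encodes the peroxidase that reduces phospholipid hydroperoxides in membranes and so restrains ferroptosis, an iron-dependent cell death. It was highest in enterocyte-like cells in 6 of 6 libraries, where it had 885 to 1190 CPM, and stem-like cells held 168 to 235 CPM, a median log2 ratio of 2.48. *Cat* (chr2:103453849-103485160, minus strand) encodes catalase, the hydrogen peroxide-splitting enzyme of peroxisomes. It too was highest in enterocyte-like cells in 6 of 6 libraries, where it had 308 to 516 CPM, and stem-like cells held 65.5 to 113 CPM (median log2 ratio 2.22).

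The dismutases differed from each other. *Sod1* (chr16:90220754-90226329, plus strand), the cytosolic copper-zinc enzyme, ranged over the libraries from 331 to 466 CPM among enterocyte-like and from 208 to 249 CPM among stem-like cells. The lowest enterocyte-like level was above the highest stem-like one. *Sod2* (chr17:13006846-13040063, plus strand), is the manganese enzyme of mitochondria. Stem-like cells held 123 to 144 CPM of it and enterocyte-like cells 101 to 147 CPM, ranges that overlap, and cluster 0 had 126 to 178 CPM. Cluster 10 lay below all of these at 21.4 to 53.3 CPM.

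*Prdx1* (chr4:116685544-116700822, plus strand) encodes a cytosolic peroxiredoxin, a thiol peroxidase recharged by thioredoxin. Stem-like cells held 753 to 926 CPM of it. Its range was 1320 to 1916 CPM for cluster 5, 1268 to 2057 CPM for cluster 0 and 995 to 1856 CPM for enterocyte-like cells. *Txnrd1* (chr10:82833951-82897712, plus strand), cytosolic thioredoxin reductase, was highest in cluster 0 in 5 of 6 libraries, at 220 to 362 CPM. *Eid3* lies within the span of *Txnrd1* on the same strand, so reads of the overlap are uncertain. *Nqo1* (chr8:107388225-107403206, minus strand) encodes a quinone reductase and was the sparsest member. Cluster 5 held 40.9 to 59.5 CPM of it, enterocyte-like cells 17.2 to 30.7 CPM and stem-like cells 7.42 to 19.4 CPM.

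Paneth-like cells, which secrete antimicrobial peptides, had the lowest level of *Gpx4*, *Cat*, *Sod1*, *Prdx1* and *Txnrd1* in 6 of 6 libraries. *Prdx1* there was 89.0 to 169 CPM and *Cat* 7.95 to 50.1 CPM. Defensin genes led the cluster, and a CPM of any other gene is read against a total that includes them. Free RNA from broken cells, which enters every droplet, was estimated at 302 to 963 UMIs per droplet, 1.51 to 6.58% of the UMIs of enterocyte-like cells. The 302 was that of HFD sham villi, the library with 7 immune-like cells. The part of free RNA in low levels was not tested.

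Within enterocyte-like cells a further gradient was seen. Cells of each library were ordered by the share of villus-top genes among villus-top and villus-bottom landmark genes, lists that hold no member, after thinning each cell to 2000 UMIs. The ordered cells were split into 5 equal bins, and the top bin was then set against the bottom bin. *Gpx1*, *Gpx2*, *Sod2*, *Prdx1* and *Nqo1* were lower in the top bin in 6 of 6 libraries, 5 of 9 members, against 23.2% of 6238 genes, and 0 members were higher in all 6, against 24.6% of genes. The median log2 ratio of top to bottom bin was −2.57 for *Gpx1*, with a range from −3.60 to −0.52. With clusters 0 and 10 added to the order, a choice made after seeing the data, the same 5 members were lower in 6 of 6 libraries and the median of *Gpx1* was −3.69. Cluster 10 is led by villus-top landmarks such as *Ada* and *Slc28a2*. These 5 members were lower there than in enterocyte-like cells in 6 of 6 libraries, so the wider order could hardly differ and is no further support. Cells of the top bin were also shallower, with a median of 6098 UMIs against 19520 in LFD sham crypts and 32560 against 34400 in HFD VSG villi, and the part of depth in the gradient was not tested.

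The levels at the ends of that order show how far the members spread. *Gpx1* in the bottom and the top bin was 39.2 and 7.96 CPM in LFD sham crypts, 128 and 10.5 CPM in HFD sham crypts and 175 and 24.5 CPM in HFD VSG crypts. In the villus-labelled libraries these levels were 226 and 31.1 CPM, 293 and 91.4 CPM, and 785 and 546 CPM. The top bin of HFD VSG villi thus exceeded the bottom bin of each of the 5 other libraries. Its bins also spanned less of the order, from a median landmark share of 0.0167 in the bottom bin to 0.167 in the top bin, against 0.0882 to 0.781 in LFD sham crypts, so the sizes of the top-to-bottom differences cannot be ranked across libraries. *Prdx1* went from 1124 to 469 CPM in LFD sham crypts and from 1954 to 1618 CPM in HFD VSG villi. *Cat*, *Gpx4*, *Sod1* and *Txnrd1* were lower in the top bin in 3 to 5 of the 6 libraries.

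**Figure D2:**
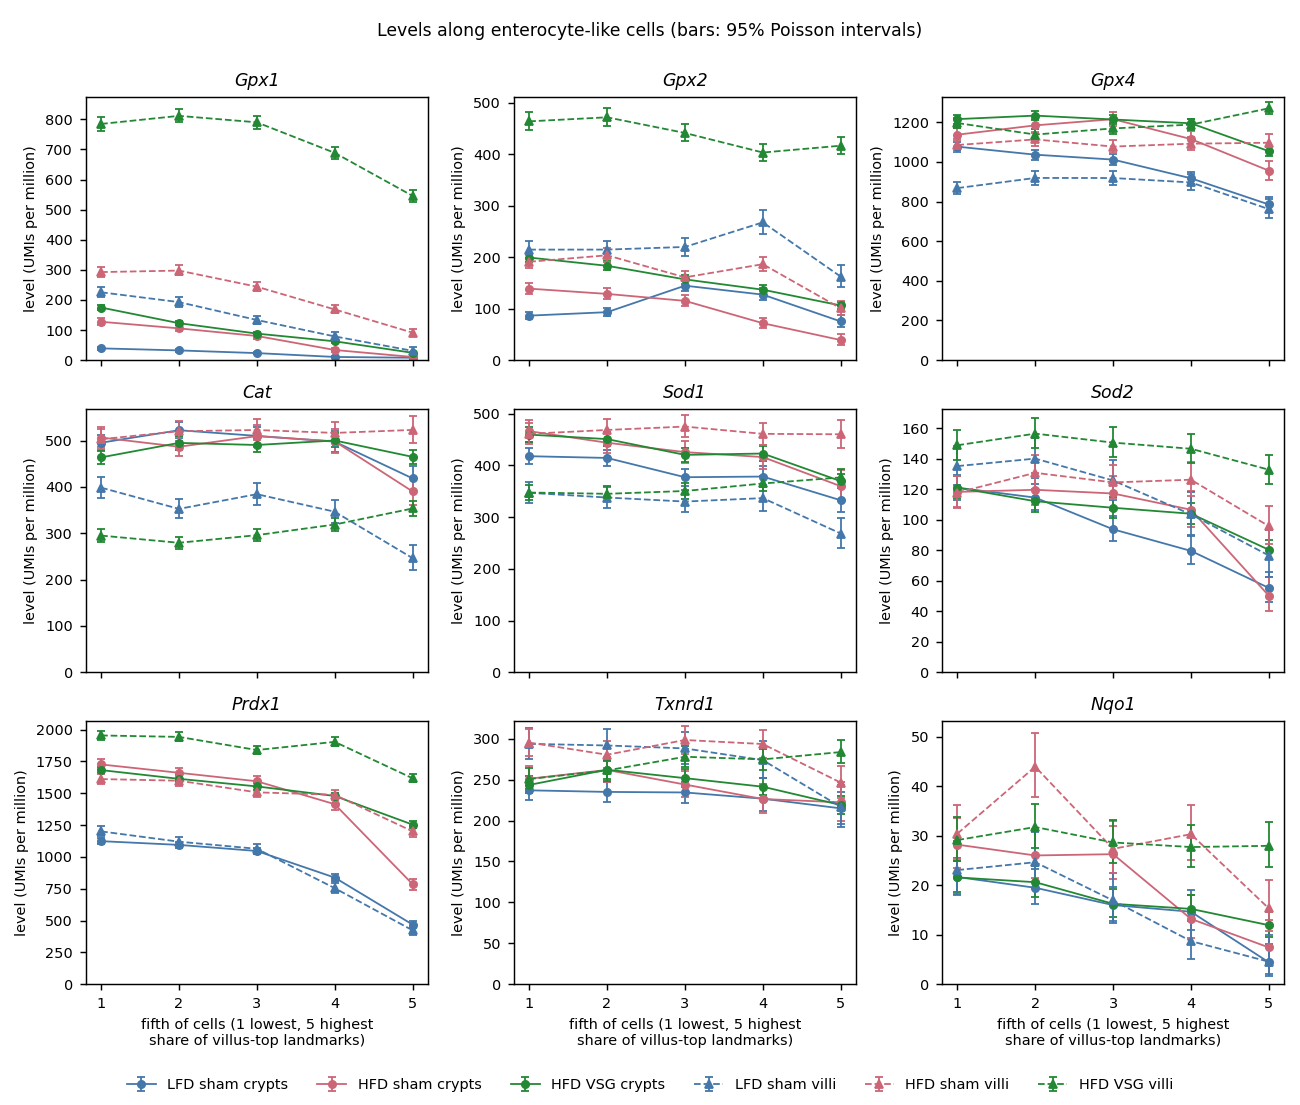
Level of each gene (CPM) in 5 equal parts of the enterocyte-like cells of each library, from the lowest (1) to the highest (5) share of villus-top landmarks; bars are 95% Poisson intervals, solid lines crypt-labelled and dashed lines villus-labelled libraries. *Gpx1* and *Prdx1* are lower in the top than in the bottom part in each library, and *Gpx1* in HFD VSG villi runs from 785 to 546 CPM above all the other libraries.

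The libraries did not span the same stretch of that order. The median landmark share of enterocyte-like cells was 0.265, 0.196 and 0.159 in the LFD sham, HFD sham and HFD VSG crypts and 0.173, 0.114 and 0.0625 in the villi of the same groups. Cells with a share under 0.1 made up 11.9% in LFD sham crypts and 72.1% in HFD VSG villi. Since several members were higher in cells with a low share, the class ratios of enterocyte-like cells are set below beside the landmark-matched ratios, those among cells with a share of 0.1 to 0.3. The clusters that make up the class shifted as well, with cluster 2 holding 51.3% of the enterocyte-like cells of HFD VSG villi and 34.1% of those of LFD sham villi.

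The first question of the design is what a high-fat diet did to these genes. HFD sham was set against LFD sham within each label for every member in every named epithelial class where it averaged 50 UMIs or more over the libraries, and such a pair was counted when its log2 ratio lay beyond 0.5, the size the study used. In the crypt-labelled libraries 11 of 39 pairs did so (28.2%), 8 higher and 3 lower in HFD sham, against 14.3% of the 22068 pairs of all genes (6.68% higher, 7.61% lower). In the villus-labelled libraries 9 of 55 pairs did (16.4%), 7 higher and 2 lower, against 11.5% of 40737 (6.37% higher, 5.16% lower). The higher pairs were mostly of *Gpx1*, *Prdx1*, *Cat* and *Nqo1*, and the lower ones of *Gpx2*, *Gpx4* and *Prdx1*. When free RNA was subtracted with the fractions the study stated for each library, the split became 5 higher and 8 lower of 38 in crypts, against 11.9% and 9.20% of all pairs, and 7 higher and 14 lower of 54 in villi, against 8.15% and 7.22%. Those fractions are several times larger for the HFD sham libraries, which both comparisons share, than for the other libraries. They also exceed the estimates made here for HFD sham. The estimate for HFD sham villi, 302 UMIs per droplet, was the lowest. That library held 7 immune-like cells, against 73 to 550 in the others. Which of the fractions and estimates lies nearer the true share was not tested.

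*Gpx1* had log2 ratios above 0 in 4 of 4 named epithelial classes counted in crypts and 6 of 6 in villi. In enterocyte-like cells its level was 26.7 CPM in LFD sham crypts and 84.1 CPM in HFD sham crypts, a log2 ratio of 1.65 [1.52, 1.79]. In the villus-labelled libraries it was 152 and 231 CPM, a log2 ratio of 0.60 [0.52, 0.68]. Among cells with a landmark share of 0.1 to 0.3 the log2 ratios were 1.47 and 0.37, and it was higher in HFD sham in 5 of 5 enterocyte-like clusters under both labels. With a maximum of 10% mitochondrial UMIs the villus-labelled ratio was 0.16. Cycling progenitor-like cells had ratios of 0.54 in crypts and 0.55 in villi, and cluster 5 had 0.60 and 0.53. In cluster 0 the ratio was 1.16 in crypts and 0.34 in villi, and in stem-like cells it was 0.05 and 0.25.

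*Prdx1* was higher by a like amount under both labels in enterocyte-like cells taken as 1 class. It was 995 CPM in LFD sham crypts and 1536 CPM in HFD sham crypts, a log2 ratio of 0.63 [0.60, 0.65], and 995 and 1506 CPM in the villus-labelled libraries, 0.60 [0.57, 0.63]. Among cells of landmark share 0.1 to 0.3 the ratios were 0.57 and 0.47. They were 0.62 and 0.46 under 0.1, and 0.55 and 0.98 over 0.3. The enterocyte-like clusters ran from 0.40 to 0.69 in crypts and from 0.22 to 1.34 in villi. Cluster 10 had 0.58 and 0.63. In stem-like cells *Prdx1* had ratios of −0.17 [−0.36, 0.02] in crypts and 0.13 [0.03, 0.22] in villi.

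*Nqo1* was above 0 in each class counted, 2 in crypts and 3 in villi. Its level in enterocyte-like cells was 17.2 and 22.7 CPM in LFD sham and HFD sham crypts and 17.7 and 30.7 CPM in villi, log2 ratios of 0.40 [0.20, 0.60] and 0.79 [0.57, 1.02]. The landmark-matched ratios were 0.40 and 0.56, and *Nqo1* was higher in 4 of 5 enterocyte-like clusters under each label. The villus-labelled ratio was 0.26 with a maximum of 10% mitochondrial UMIs. In stem-like cells of the villus-labelled libraries *Nqo1* went from 9.85 to 19.4 CPM, with a wide interval of 0.25 to 1.70 around a log2 ratio of 0.98. This pair held 38 and 32 UMIs and reached the minimum only through the 214 UMIs of HFD VSG villi, and with the mean taken over both compared libraries it was not counted, leaving 6 higher pairs of 54 in villi. *Cat* in enterocyte-like cells was 359 CPM in LFD sham villi and 516 CPM in HFD sham villi, a ratio of 0.52 [0.47, 0.57], while in crypts it was 499 and 490 CPM. The landmark-matched ratios of *Cat* were 0.50 in villi and −0.05 in crypts. The largest ratio of *Cat* was in Paneth-like cells of villi, 0.95 [0.54, 1.36], from 15.6 to 30.2 CPM on 106 and 96 UMIs. Of all genes counted in these cells 23.3% were higher by over 0.5. A set of 4 genes taken here as marks of damaged droplets (*Gm42418*, *Gm26917*, *Lars2* and *AY036118*) summed to 10468 and 32971 CPM in these cells of LFD sham and HFD sham villi. Enterocyte markers there summed to 692 and 1473 CPM and median depths were 52496 and 7056.5 UMIs, and the part of these was not tested.

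*Gpx2* stood apart from *Gpx1* in this comparison. It was below 0 in 6 of 7 classes of the villus-labelled libraries, with goblet-like cells at 331 CPM in LFD sham and 205 CPM in HFD sham, a log2 ratio of −0.69 [−0.82, −0.57]. Tuft-like cells had −0.57 [−1.05, −0.09], which became 0.05 when classes were taken by each cell's share of marker UMIs in place of clusters. In enterocyte-like cells the ratio was 0.05 in crypts and −0.33 in villi, and *Gpx2* was higher in HFD sham in 2 of 5 clusters in crypts and 1 of 5 in villi. In crypts it was 0.69 among cells of landmark share under 0.1, 0.12 from 0.1 to 0.3 and −1.003 over 0.3. In villi it was below 0 in each of the 3 ranges, at −0.13, −0.47 and −1.24.

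*Gpx4* had its largest ratios in secretory cells of the crypt-labelled libraries. Goblet-like cells had 175 CPM in LFD sham and 308 CPM in HFD sham, a log2 ratio of 0.81 [0.54, 1.08], and *Cat* there had 0.62. The enterocyte markers in the same goblet-like cells summed to 11818 and 21657 CPM, and their part in the ratios was not tested. In HFD sham 1 of 90 cells held 22.8% of the *Gpx4* UMIs and 20.8% of the *Cat* UMIs. Without the cell with most UMIs none of the 36 single values compared moved beyond its interval. With the stated fractions subtracted the *Gpx4* ratio became −1.31, and with classes by marker share the *Cat* ratio became −0.09. Paneth-like cells had lower *Gpx4*, *Gpx2* and *Prdx1*, with ratios of −0.96, −0.82 and −0.73. Of the 666 genes counted in these cells 25.8% were lower by over 0.5, and their median log2 ratio was −0.176. Enterocyte markers there summed to 8988 CPM in LFD sham and 3122 CPM in HFD sham, in 65 and 27 cells with median depths of 3048 and 22695 UMIs, and these were not tested either. By marker share the *Prdx1* ratio was 0.07. In enterocyte-like cells *Gpx4* was higher in HFD sham in 5 of 5 clusters under both labels, but only by log2 ratios of 0.19 and 0.30 for the class and landmark-matched ratios of 0.19 and 0.23.

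*Cat* in cycling progenitor-like cells of crypts had a ratio of 0.55 [0.18, 0.92], which turned to −0.26 with the stated fractions subtracted. *Sod1*, *Sod2* and *Txnrd1* had 0 pairs beyond 0.5 in the named classes of either label. The nearest was *Sod1* in enterocyte-like cells of villi, at 331 and 466 CPM and a log2 ratio of 0.49 [0.44, 0.55], with a landmark-matched ratio of 0.48. The landmark-matched ratios of *Sod2* and *Txnrd1*, and that of *Sod1* in crypts, lay between −0.09 and 0.13.

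**Figure D3:**
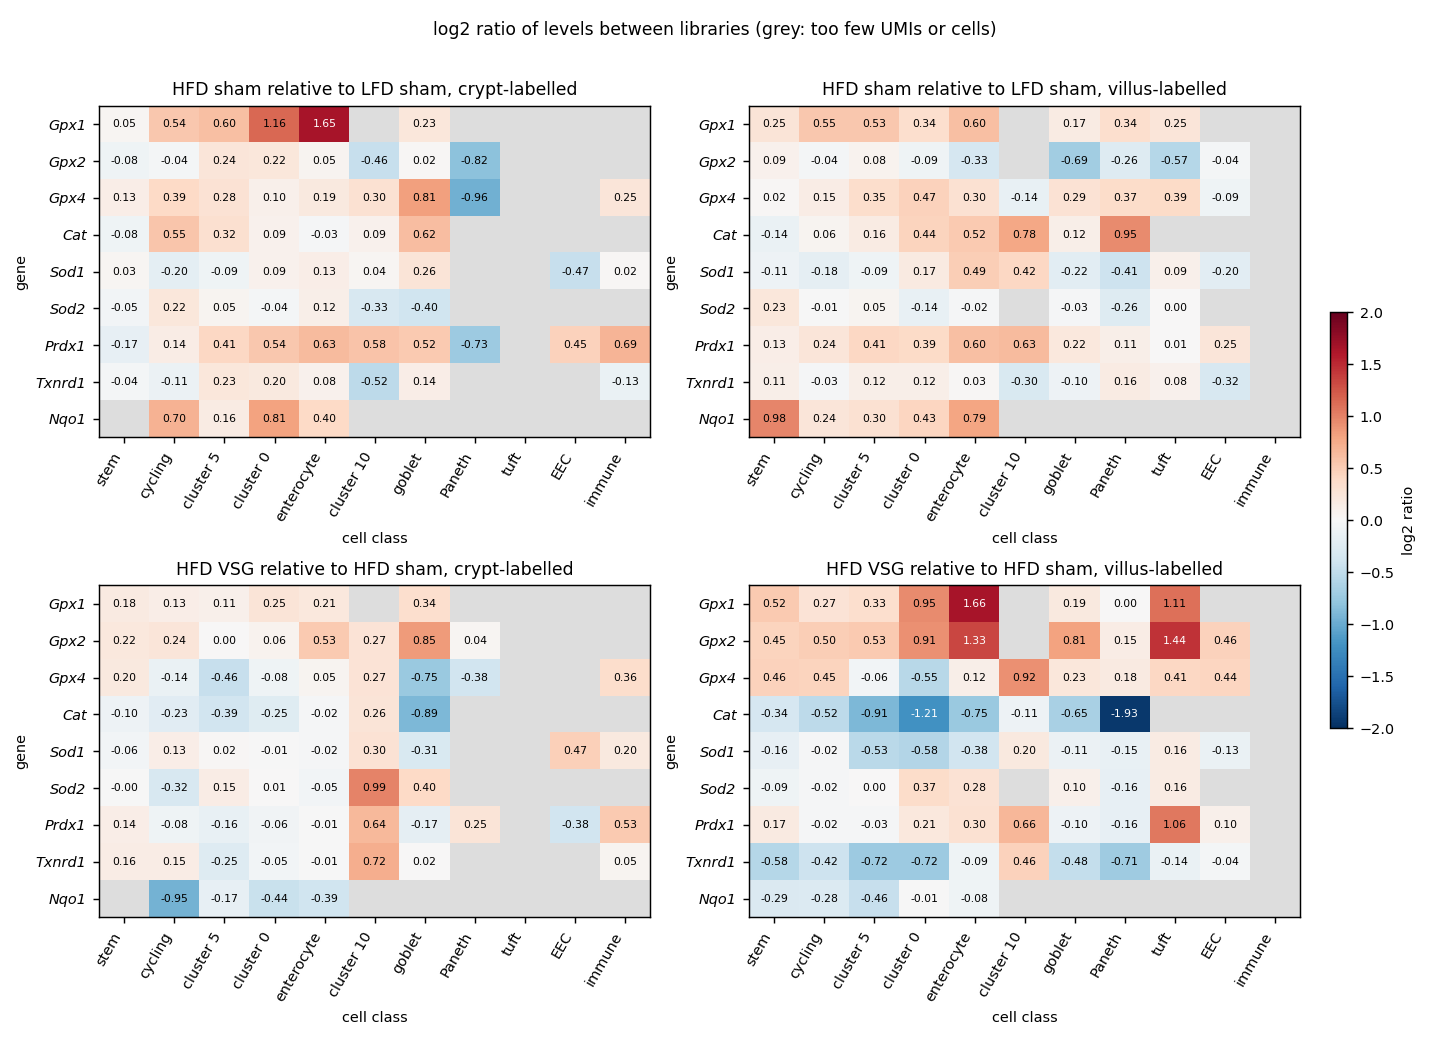
log2 ratios of levels between libraries for each gene (rows) and cell class (columns), HFD sham relative to LFD sham above and HFD VSG relative to HFD sham below, crypt-labelled on the left and villus-labelled on the right; grey cells had too few UMIs or cells. In enterocyte-like cells *Gpx1* has the highest value of the 9 genes in the upper left (1.65) and lower right (1.66) panels, and *Cat* is below 0 in each named epithelial class counted in both lower panels.

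The second question is what surgery did under the same high-fat diet. HFD VSG was set against HFD sham, and these comparisons share the HFD sham libraries with the first ones, so the values of both comparisons are not independent of each other. In the crypt-labelled libraries 5 of 39 pairs lay beyond 0.5 (12.8%), 2 higher and 3 lower, against 12.7% of pairs of all genes (7.59% higher, 5.11% lower), a share near the background. In the villus-labelled libraries 13 of 55 did (23.6%), 7 higher and 6 lower, against 39.3% of all pairs, of which 9.46% were higher and 29.8% lower. The median of all genes in that comparison stood at −0.27 in stem-like cells, −0.22 in cluster 5, −0.62 in Paneth-like cells and −0.03 in enterocyte-like cells. Relative to these medians 15 pairs were higher and 2 lower, against 18.4% and 16.6% of all pairs centred in the same way. With median-of-ratios scaling 18 were higher and 2 lower, against 20.1% and 15.3%. With the stated fractions subtracted 11 of 38 pairs were higher and 2 lower in crypts, against 9.49% and 8.12% of all pairs, and 16 of 54 were higher and 4 lower in villi, against 10.3% and 34.6%. With classes by marker share 1 of 45 was higher and 9 lower in crypts, against 7.16% and 6.81%, and 8 of 57 were higher and 14 lower in villi, against 7.49% and 37.2%.

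The HFD VSG villi differed from the HFD sham and LFD sham villi in several measures. They were the deepest library, and the 4 genes taken as marks of damaged droplets summed to 10255 CPM in their enterocyte-like cells, against 38573 CPM in HFD sham villi and 66155 CPM in LFD sham villi. Whether these genes mark damage in such cells was not tested. The crypt-labelled libraries had 13394, 46050 and 57609 CPM in the same order of groups, so this sum was lowest in HFD VSG under both labels. Markers of erythrocytes, 5 genes, summed to 103 CPM in enterocyte-like cells of HFD VSG villi and to at most 0.955 CPM in the other 5 libraries, while in stem-like cells and clusters 0 and 5 of HFD VSG villi they summed to 1.17 to 1.62 CPM. Markers of myeloid and of stromal and endothelial cells summed to under 1 CPM in enterocyte-like cells of each library. The part of these measures in the values that follow was not tested.

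*Gpx1* had the highest ratio of the members. In enterocyte-like cells its level was 231 CPM in HFD sham villi and 727 CPM in HFD VSG villi, a log2 ratio of 1.66 [1.61, 1.70]. It was higher in HFD VSG in 5 of 5 enterocyte-like clusters, by 1.40 to 1.96, and among cells of landmark share 0.1 to 0.3 by 1.69. With classes by marker share the ratio was 0.90. Cluster 0 had 675 and 1304 CPM, a ratio of 0.95 [0.91, 0.99], and stem-like cells had 0.52 [0.42, 0.63]. Tuft-like cells had 1.11 [0.79, 1.44], which was 0.67 with more barcodes removed as doublets. In HFD VSG villi 1 of 28 tuft-like cells held 20.9% of their *Gpx1* UMIs. In the crypt-labelled libraries the ratio in enterocyte-like cells was 0.21 [0.12, 0.30], with 84.1 and 97.4 CPM, and −0.03 [−0.14, 0.09] among cells of landmark share 0.1 to 0.3. It was 0.30 [0.16, 0.44] among cells under 0.1 and 0.34 [−0.03, 0.72] among those over 0.3. In crypts *Gpx1* was higher in 4 of 5 enterocyte-like clusters, by −0.49 to 0.99, with cluster 1 at 70.6 and 50.2 CPM as the lower one. *Gpx1* was thus at or above 0 in each named epithelial class counted under both labels, 4 and 6, by amounts that differed with the label. The same gene in droplets under 100 UMIs, which hold free RNA, stood at 303 CPM in HFD sham villi and 925 CPM in HFD VSG villi, and its part was not tested beyond the subtractions named here.

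*Gpx2* had log2 ratios above 0 in 5 of 5 named epithelial classes in crypts and 7 of 7 in villi. Enterocyte-like cells had 174 CPM in HFD sham villi and 439 CPM in HFD VSG villi, a log2 ratio of 1.33 [1.28, 1.39], and 110 and 158 CPM in crypts, a ratio of 0.53 [0.45, 0.60]. The landmark-matched ratios were 1.41 and 0.37. With classes by marker share the class ratios were 0.56 and 0.20. Goblet-like cells had like ratios under both labels, 0.81 [0.69, 0.93] in villi and 0.85 [0.56, 1.15] in crypts. Tuft-like cells of villi had 1.44 [1.03, 1.86] from 65 and 28 cells, and 1 of the 28 held 17.2% of their *Gpx2* UMIs.

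*Cat* went the other way. Its log2 ratio was below 0 in 4 of 4 classes in crypts and 5 of 5 in villi. In those classes of villi the median of all genes was below 0 as well, −0.62 to −0.03. In enterocyte-like cells *Cat* was 516 CPM in HFD sham villi and 308 CPM in HFD VSG villi, a log2 ratio of −0.75 [−0.79, −0.71], with a landmark-matched ratio of −0.64 and lower values in 5 of 5 clusters. In crypts the same cells had 490 and 483 CPM, a ratio of −0.02 [−0.06, 0.02], with *Cat* higher in 4 of 5 clusters (−0.16 to 0.27). Cluster 0 of villi had −1.21 and cluster 5 had −0.91. Of all genes counted in villi, 16.3% in enterocyte-like cells, 26.6% in cluster 0 and 32.1% in cluster 5 were lower by over 0.5. Goblet-like cells had −0.89 [−1.26, −0.52] in crypts and −0.65 [−0.90, −0.40] in villi, the latter 0.17 with the stated fractions subtracted and the former −0.19 with classes by marker share. Enterocyte markers in these goblet-like cells summed to 21657 CPM in HFD sham and 9825 CPM in HFD VSG crypts. In villi they summed to 4303 and 2570 CPM, and their part was not tested. In HFD sham crypts 1 goblet-like cell held 20.8% of the *Cat* UMIs. Without the cell with most UMIs none of the 36 single values compared moved beyond its interval. Paneth-like cells of villi had −1.93 with an interval from −2.68 to −1.23, on levels of 30.2 and 7.95 CPM. These rest on 96 and 21 UMIs, and 1 of 46 HFD VSG cells held 42.9% of the 21. Of all genes counted in Paneth-like cells of villi 56.6% were lower by over 0.5. Enterocyte markers summed to 1473 and 1438 CPM in these cells and the damaged-droplet genes to 32971 and 6742 CPM.

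*Sod1* was lower as well, in HFD VSG villi in 5 of 5 enterocyte-like clusters and by a log2 ratio of −0.38 [−0.43, −0.34] for the class, from 466 to 357 CPM, with a landmark-matched ratio of −0.32, −0.58 in cluster 0 and −0.53 in cluster 5. Of all genes counted in villi, 16.3% in enterocyte-like cells, 26.6% in cluster 0 and 32.1% in cluster 5 were lower by over 0.5. In crypts the landmark-matched ratio of *Sod1* was −0.03. *Sod2* had 0.28 [0.21, 0.36] in enterocyte-like cells of villi and −0.05 in crypts, and landmark-matched ratios of 0.19 and −0.14. Both were within 0.5 in each named epithelial class.

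*Gpx4* was above 0 in 7 of 7 classes of villi, by 0.12 to 0.46, with 1092 and 1190 CPM in enterocyte-like cells, and was −0.55 in cluster 0. Its landmark-matched ratios were 0.15 in villi and 0.02 in crypts. In crypts its only pair beyond 0.5 was goblet-like cells, at −0.75, which turned to 1.26 with the stated fractions subtracted. The summed enterocyte markers of these cells are those given with *Cat*. *Txnrd1* was below 0 in 7 of 7 classes of villi, by −0.71 to −0.04, most of it in stem-like cells (−0.58), Paneth-like cells (−0.71) and clusters 0 and 5 (both −0.72), while cluster 10 of crypts had 0.72. The median of all genes was also below 0 in these 7 classes of villi except EEC-like cells. Of all genes counted in villi, 33.4% in stem-like cells, 56.6% in Paneth-like cells, 26.6% in cluster 0 and 32.1% in cluster 5 were lower by over 0.5. In enterocyte-like cells *Txnrd1* had −0.09 in villi and −0.006 in crypts, and landmark-matched ratios of −0.03 and −0.008. With median-of-ratios scaling the stem-like ratio was −0.26 and the Paneth-like one −0.15. *Prdx1* lay within 0.5 in most classes, with 0.30 [0.28, 0.32] in enterocyte-like cells of villi and −0.01 in crypts, and landmark-matched ratios of 0.23 and −0.08. Its exceptions were tuft-like cells of villi, at 263 and 548 CPM and a ratio of 1.06, and cluster 10, at 0.64 in crypts and 0.66 in villi. Of all genes counted in cluster 10, 21.6% in crypts and 26.8% in villi were higher by over 0.5. The share was 22.7% in tuft-like cells of villi, where 1 of 28 HFD VSG cells held 23% of the *Prdx1* UMIs. *Nqo1* was below 0 in each class counted, 2 in crypts and 3 in villi. In the 3 of villi the median of all genes was below 0 as well, −0.28 to −0.03. Cycling progenitor-like cells of crypts had 54.5 and 28.3 CPM, a ratio of −0.95 [−1.48, −0.41], and enterocyte-like cells −0.39 [−0.57, −0.21] in crypts and −0.08 [−0.23, 0.07] in villi, with landmark-matched ratios of −0.52 and −0.07. The clusters of that class were not of 1 sign, with *Nqo1* higher in HFD VSG in 2 of 5 in crypts (−0.76 to 0.67) and in 4 of 5 in villi (−0.33 to 1.01).

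**Figure D4:**
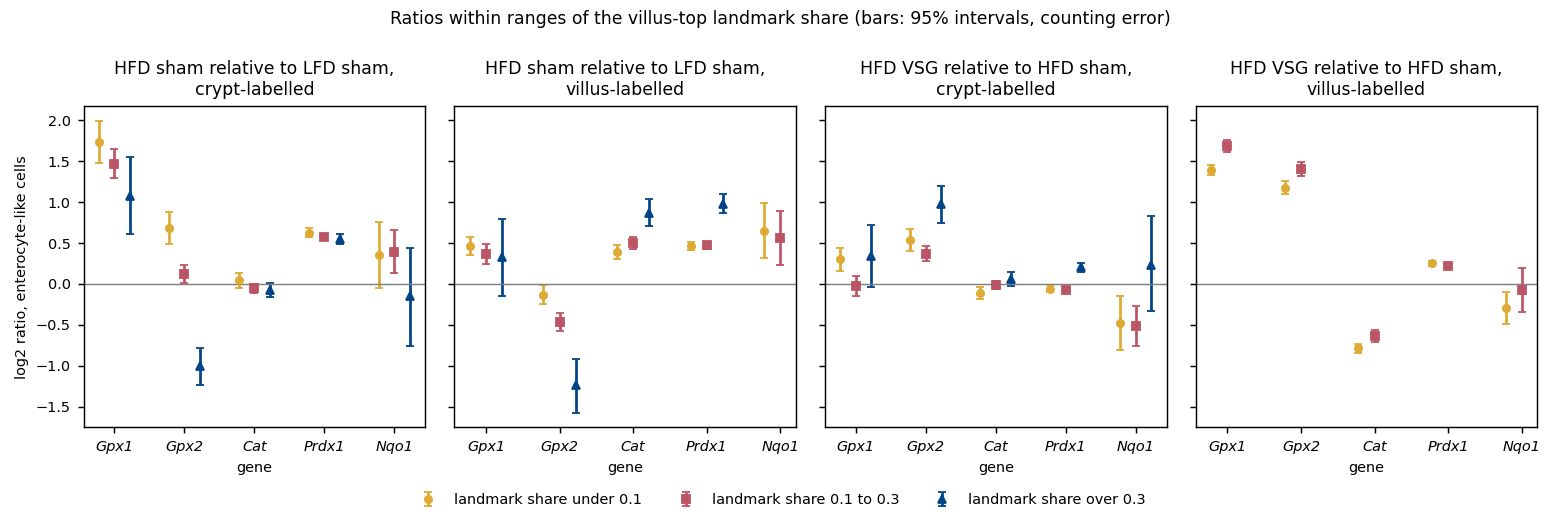
log2 ratios of 5 of the genes in enterocyte-like cells within 3 ranges of the villus-top landmark share (under 0.1, 0.1 to 0.3 and over 0.3), with 95% intervals for counting error. Each panel is 1 comparison. Values over 0.3 are not drawn for HFD VSG relative to HFD sham villi, where 15 HFD VSG cells had such a share. Nor is the value of *Nqo1* over 0.3 for HFD sham relative to LFD sham villi. *Prdx1* in HFD sham relative to LFD sham and *Gpx1* in HFD VSG relative to HFD sham villi keep their sign in the ranges drawn, while *Gpx2* in HFD sham relative to LFD sham crypts runs from 0.69 to −1.003.

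Of 62 pairs counted under both labels, the 3 numbered clusters included, 5 lay beyond 0.5 in the same direction under both for the diet (8.06%) and 4 for surgery (6.45%), against 3.29% and 5.66% of 36360 such pairs of all genes. For HFD sham relative to LFD sham they were *Gpx1* in enterocyte-like cells, cycling progenitor-like cells and cluster 5, and *Prdx1* in enterocyte-like cells and cluster 10. For HFD VSG relative to HFD sham they were *Gpx2* in enterocyte-like and goblet-like cells, *Cat* in goblet-like cells, where enterocyte markers were lower as well, and *Prdx1* in cluster 10. In that cluster 21.6% of all genes counted in crypts and 26.8% in villi were higher by over 0.5. The crypt-labelled and villus-labelled libraries of a group come from the same pool of mice and are not replicates.

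The other genes of the pathway were taken from lists by function and read in enterocyte-like cells, where most were counted. Of 12 genes for glutathione synthesis and recycling 10 were counted. In HFD sham relative to LFD sham 3 were higher by over 0.5 in crypts and 4 in villi, with 0 lower, against 5.87% and 6.23% of all genes higher and 7.13% and 6.36% lower. *Me1*, a source of NADPH, had log2 ratios of 2.30 in crypts and 1.76 in villi, and *Idh1*, another, 1.05 in villi. In HFD VSG relative to HFD sham 1 was lower in crypts and 4 in villi, with 0 higher, against 2.44% and 16.3% of genes lower and 6.63% and 17.2% higher. *Gclc*, the catalytic subunit of the rate-limiting enzyme of glutathione synthesis, had −0.86 and −1.08, and *Idh1* −1.18 in villi.

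Among 17 other peroxiredoxin and thioredoxin genes, 2 of 17 were higher in HFD sham crypts and 0 of 16 in HFD sham villi, with 0 lower, against 5.87% and 6.23% of genes higher. With the minimum taken over both compared libraries 1 of 15 was higher in crypts, so the other passed only through HFD VSG. In HFD VSG villi 7 of 16 were higher and 2 lower than in HFD sham villi, against 17.2% and 16.3% of genes, and 0 of 17 in crypts. *Prdx4*, the peroxiredoxin of the endoplasmic reticulum, had the largest ratio of them, 2.16, from 3.72 to 16.6 CPM. Between enterocyte-like and stem-like cells 5 of the 17 were higher and 10 lower in 6 of 6 libraries, against 26.1% and 47.9% of all genes. As examples chosen after their values were seen, *Prdx5* had a median log2 ratio of enterocyte-like to stem-like cells of 2.66 and *Srxn1*, sulfiredoxin, which repairs overoxidised peroxiredoxins, one of 3.39, while *Prdx3* had −1.54 and *Prdx4* −4.81.

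Sources of reactive oxygen were counted for 8 of 10 genes. In enterocyte-like cells 3 were higher and 2 lower in HFD VSG than in HFD sham crypts, against 6.63% and 2.44% of all genes, and 4 higher and 4 lower in villi, against 17.2% and 16.3%. *Duox2*, an NADPH oxidase of the apical membrane that releases hydrogen peroxide, and its maturation factor *Duoxa2* had log2 ratios of 2.22 and 3.02 in crypts and 2.98 and 3.06 in villi. Their levels were low, for *Duox2* 2.05 and 9.56 CPM in crypts and 1.17 and 9.20 CPM in villi. In HFD sham crypts and villi *Duoxa2* had 16 and 13 UMIs and *Duox2* 35 and 22, so both genes passed the minimum through HFD VSG, where they are high, and the counts that include them are no support for a direction. *Maob*, a mitochondrial monoamine oxidase that makes hydrogen peroxide, had −0.65 and −1.31. For the diet the list had 3 higher and 0 lower in crypts, against 5.87% and 7.13% of all genes, and 2 higher and 2 lower in villi, against 6.23% and 6.36%. With the minimum taken over both compared libraries these became 1 higher and 0 lower of 6 in crypts and 2 higher and 1 lower of 6 in villi, with *Maoa* at 1.01 in villi.

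NRF2 regulators and other NRF2 targets held few genes beyond 0.5. Of 12 genes 8 or 9 were counted in enterocyte-like cells. With the diet 1 was higher and 1 lower under each label, against the same 5.87% and 7.13% of genes in crypts and 6.23% and 6.36% in villi, the lower one being *Bach1*, a repressor of NRF2 target genes, at −0.55 and −0.72. With surgery 0 of 9 lay beyond 0.5 in crypts, where 6.63% of genes were higher and 2.44% lower, and 1 of 8 was lower in villi, against 16.3% of genes. *Nfe2l2*, which encodes NRF2, was higher in enterocyte-like than in stem-like cells in 6 of 6 libraries, with a median log2 ratio of 0.97. Of the 8 genes of selenoprotein synthesis, 6 were lower in enterocyte-like than in stem-like cells in 6 of 6 libraries, against 47.9% of all genes, and *Sephs2* was higher (0.90), against 26.1%. Of 12 other selenoprotein genes 10 were counted in crypts, 2 higher and 1 lower in HFD sham than in LFD sham, against 5.87% and 7.13% of genes. Of the higher ones *Selenoh*, with 51 and 45 UMIs, passed the minimum only through HFD VSG, and over both compared libraries 1 of 9 was higher and 1 lower. In villi 0 of 11 were higher and 1 lower, against 6.23% and 6.36%. *Selenop*, the secreted selenium carrier, was the lower one in crypts, at 5314 and 3435 CPM.

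Genes whose levels ran most alike to each member's over 64 pairs of class and library were found by Pearson correlation of log2(CPM + 10) across 2950 genes that averaged 50 CPM or more. The pairs share libraries and classes, so r is a description. *Gpx1* was nearest to *Pycard* (r = 0.967) and *Tfrc* (0.938), *Gpx2* to *Nfib* (0.919), *Gpx4* to *Prdx5* (0.975) and *Cat* to *Sult1b1* (0.956). *Sod1* was nearest to *Ctsb* (0.945), *Sod2* to *Timm13* (0.934), *Prdx1* to *Mtch2* (0.961), *Txnrd1* to *Trappc10* (0.935) and *Nqo1* to *Car4* (0.903). Among the members themselves *Gpx1* and *Gpx2* had r = 0.839 and *Gpx4* and *Cat* 0.912, while *Gpx1* and *Gpx4* had 0.115 and *Gpx2* and *Cat* −0.002.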

How the data were processed

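The authors deposited count matrices holding raw UMI counts, made with Cell Ranger 6.0.0 on the mm10 build per the submitters' processing notes, 1 library per group and label. Barcodes called as cells were taken as those in the filtered matrices. From these counts, doublets were scored against 2 simulated doublets per barcode and removed at a rate set by the number of called barcodes, and cells with at least 750 genes and at most 20% mitochondrial UMIs were kept. Cells were integrated over libraries on 2000 genes, leaving out the 2 members among them, with 30 components, and clustered at resolution 0.4 (R 4.3.3, Seurat 5.3.0, sctransform 0.4.2, Matrix 1.6.5). A cluster was named where over 50% of a class's markers, and at least 3, were 2-fold above the median cluster and in 10% of its cells. Rules that left clusters led by damaged-droplet or B-cell genes unnamed were set after seeing the data, as were 4 alternatives: each cell weighted equally, a landmark share of 0.1 to 0.3, clusters 0 and 10 added to the landmark order, and the minimum of UMIs taken over the libraries compared.

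Counts were summed per class and library and divided by the class total. Ratios carry exact conditional Poisson intervals at 95%, and a pair was counted with a mean of 50 UMIs over the libraries of its label and 20 cells in each. Genes outside the members were named from at most the 3 highest and 3 lowest ratios of a list in a comparison and the 3 highest correlations with a member, except for list genes given by their ratio of enterocyte-like to stem-like cells, which were chosen after their values were seen. The members and lists were chosen with earlier results of these data known. The study's test over cells was not repeated, since cells of 1 pooled library are not replicates. Between 17 and 43 barcodes were shared by a pair of libraries, 0.219 to 0.450% of the smaller. Free RNA was left in the main values. Positions are from GENCODE vM21, and scripts ran in Python 3.11.15 (scikit-learn 1.9.0, scipy 1.17.1, numpy 2.4.6, matplotlib 3.10.9, pandas 2.3.3) and were tested on simulated data.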

Additional observations from a re-analysis of the deposited data

How the results depend on the processing

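No paired analysis was possible because each group has 1 library per label and no result comes from a test. The number of members higher in enterocyte-like than in stem-like cells in 6 of 6 libraries, 6, stayed within 1.5-fold of that value under each alternative run. The counts of pairs beyond 0.5 did not. With the stated free-RNA fractions subtracted they were 13 for HFD VSG relative to HFD sham crypts, 21 for HFD sham relative to LFD sham villi and 20 for HFD VSG relative to HFD sham villi. With classes by marker share the same counts were 10, 14 and 22. The 14 were 12 higher and 2 lower of 57 pairs, against 8.07% and 3.90% of all pairs. The shares of all pairs for the other counts of these 2 settings are given above. Thinning each cell to 1500 UMIs gave 4 for HFD sham relative to LFD sham crypts, 3 for HFD VSG relative to HFD sham crypts and 4 for HFD sham relative to LFD sham villi, over fewer pairs. A minimum of 200 UMIs gave 5 and 3 in the crypt-labelled comparisons of diet and surgery, and no minimum gave 10 for surgery in crypts and 14 for diet in villi. Weighting each cell equally gave 12 for surgery in crypts, and median-of-ratios scaling 20 for surgery in villi. With the minimum of 50 UMIs taken over the libraries compared the counts were 11 of 38 and 5 of 37 pairs in crypts and 8 of 54 and 13 of 55 in villi. Of all pairs in crypts 5.72% were higher and 7.02% lower for diet, and 7.77% and 4.91% for surgery. In villi these shares were 6.08% and 4.50% for diet and 9.94% and 28.7% for surgery. A size threshold of 1 left 1 and 0 pairs for diet and surgery in crypts and 0 and 6 in villi. No share of all genes stands beside the counts for thinning, a minimum of 200 UMIs or none, equal weighting and the threshold of 1. Those counts show only how the number of pairs moved and are no result about the members. Single values turned sign with the stated fractions for *Cat* in cycling progenitor-like cells (−0.26, diet, crypts) and goblet-like cells (0.17, surgery, villi) and for *Gpx4* in goblet-like cells (−1.31 and 1.26, diet and surgery, crypts). They turned with classes by marker share for *Cat* in goblet-like cells (−0.09) and *Prdx1* in Paneth-like cells (0.071) of the diet comparison in crypts and for *Gpx2* in tuft-like cells (0.05, diet, villi). The cause was not tested. No single value moved beyond its interval with totals without mitochondrial genes, a minimum of 1500 genes or without the cell with most UMIs. With classes by marker share 21 moved beyond it, 3 turned sign and 12 did neither. With the stated fractions subtracted these numbers were 18, 4 and 13. Weighting each cell equally moved 13 and left 25, and thinning moved 8 and left 8. A maximum of 10% mitochondrial UMIs moved 8 and left 28, and median-of-ratios scaling moved 7 and left 31. The landmark share of 0.1 to 0.3 moved 8 and left 2.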
